A study of Mus musculus with 8 samples.

Results

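The AP-1 transcription factors were described here as 10 genes, Fos, Fosb, Fosl1, Fosl2, Jun, Junb, Jund, Atf3, Maff and Batf, out of 47706 genes in the count table. The members were taken by gene symbol, and where a symbol had several entries the one with the highest mean count was used. RNA sequencing was performed on primary mouse calvarial osteoblasts, the bone-forming cells digested from the skullcap of newborn mice, with 4 samples treated with PTH (parathyroid hormone) and 4 with vehicle for 24 hours. Both groups had been differentiated for 7 days and serum-starved. The labels name adipogenic differentiation whereas the study's methods describe osteogenic medium, and the labels carry a prefix, Con, that they do not explain. Neither the strain and genotype of the mice nor the pooling of pups is given for these samples. The PTH dose is not in the labels but is stated in the study's methods. Nothing states that samples of a group came from separate cultures or animals, so p-values measure only the spread between these samples, which may be technical.

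AP-1 is a dimer of basic leucine zipper proteins. JUN proteins pair with one another or with FOS proteins, FOS proteins need a JUN partner, and ATF3, BATF and the small MAF protein MAFF join the same network of dimers. The dimers bind a short palindrome known as the TPA response element, and some bind the related cAMP response element. In osteoblasts the PTH receptor raises cAMP and activates protein kinase A, which acts on CREB at cAMP response elements, and Fos is a classical early target of this route. Fosl1 and Fosl2 encode FRA-1 and FRA-2, FOS relatives that lack the strong activation domain of FOS and have known roles in bone formation.

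The sequence just before the start site is shown for 5 members because the data set them apart: Fos, Junb, Maff and Fosl2 rose strongly with PTH and Fosb did not pass the test. Jund, which did not pass either, is not shown. Each stretch holds the 130 bases before a RefSeq start site, 5′ to 3′ on the gene's strand, in GRCm38.p6. Of the 3 listed starts of Maff the second is shown, the only one with the full TGACGTCA, and no TGACG was found before the first. Capitals mark the letters TGACG, the core shared by cAMP response elements, the full element TGACGTCA in Maff, and a TATA box TATAAA in Fos. The stretches lie at chr12:85473760-85473889 (+) for Fos, chr8:84978749-84978878 (-) for Junb, chr15:79347390-79347519 (+) for Maff, chr7:19310046-19310175 (-) for Fosb and chr5:32136342-32136471 (+) for Fosl2.
Fos: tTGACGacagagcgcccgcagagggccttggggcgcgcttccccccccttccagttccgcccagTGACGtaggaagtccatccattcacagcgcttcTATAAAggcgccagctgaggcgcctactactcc
Junb: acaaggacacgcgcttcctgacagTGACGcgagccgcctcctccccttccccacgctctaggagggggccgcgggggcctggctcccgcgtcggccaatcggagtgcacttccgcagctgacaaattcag
Maff: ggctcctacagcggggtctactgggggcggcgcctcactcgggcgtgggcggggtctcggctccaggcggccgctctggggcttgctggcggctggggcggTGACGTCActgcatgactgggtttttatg
Fosb: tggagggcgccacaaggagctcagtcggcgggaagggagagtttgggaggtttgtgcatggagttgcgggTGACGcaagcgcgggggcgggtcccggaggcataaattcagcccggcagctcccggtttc
Fosl2: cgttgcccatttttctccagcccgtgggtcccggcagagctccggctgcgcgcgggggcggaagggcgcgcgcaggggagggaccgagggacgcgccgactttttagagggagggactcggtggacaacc

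Both strands of the 250 bases before each start were searched, in 32851 RefSeq windows including 11 windows of 9 members. TGACG was found in 6 of these 9 members, in 7 of their 11 windows and in 17.8% of all windows. The listed Jund start, at 70697739, lies before the annotated start of the gene at 70698949, so its window does not adjoin the annotated gene. The listed Fosl2 start, at 32136472, lies inside the annotated gene, which begins at 32135801. So does that of Atf3, at 191183333 on the minus strand, where the annotated gene begins at 191218039. Sequence before these annotated starts of Fosl2 and Atf3 was not searched. In Fos TGACG lay 129 to 125 and 66 to 62 bases before the start, in Junb 106 to 102, in Batf 98 to 94 and in Atf3 7 to 3 bases before it. TATAAA, found in Fos 33 to 28 bases before the start and in no other member, was in 12.4% of all windows. Maff had the only full TGACGTCA among the members, 29 to 22 bases before the second of its 3 listed starts, and 1.55% of all windows held this element, which itself contains TGACG on both strands. Fosb carried TGACG 60 to 56 bases before its start, so these letters stood before a member that did not pass the test as well as before members that rose, and in Fosl2, which rose, no match was found. The AP-1 site TGANTCA was found in 0 of the 9 members and in 6.75% of all windows. A serum response element was found in 0 members and in 1.47% of windows. Bases further than 250 before a start were not searched, so an element lying there, in Fos or another member, would be missed. These matches describe letters in a short window and say nothing about binding.

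After PTH treatment 8 of the 10 AP-1 genes were upregulated, 0 were downregulated and 2, Fosb and Jund, did not pass (edgeR's quasi-likelihood test, Benjamini-Hochberg adjusted p under 0.05 over 16736 tested genes). Among all tested genes 23.3% were upregulated and 22.5% were downregulated, so the AP-1 genes are read against a background in which nearly every second gene moved. At an unadjusted p under 0.05, 9 members were higher and 0 lower, beside 4419 higher and 4340 lower among the 16736 tested genes. DESeq2 also called 8 members up and 0 down, beside 3863 up and 3726 down among the same 16736 genes. The median log2 fold change was 2.20 for the members and -0.000814 for all tested genes. The upregulation reached a log2 value of 1 or more in 7 members, against 7.36% of all tested genes, a value of 2 or more in 5 members, against 2.98%, and a value of 4 or more in Fos, Junb and Maff, against 0.872%. The 4 PTH samples lay above all 4 vehicle samples in 8 members, against 21.2% of all tested genes. Since bulk RNA was measured, a change in the number of cells of a type and a change in RNA per cell cannot be told apart.

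**Figure D1:**
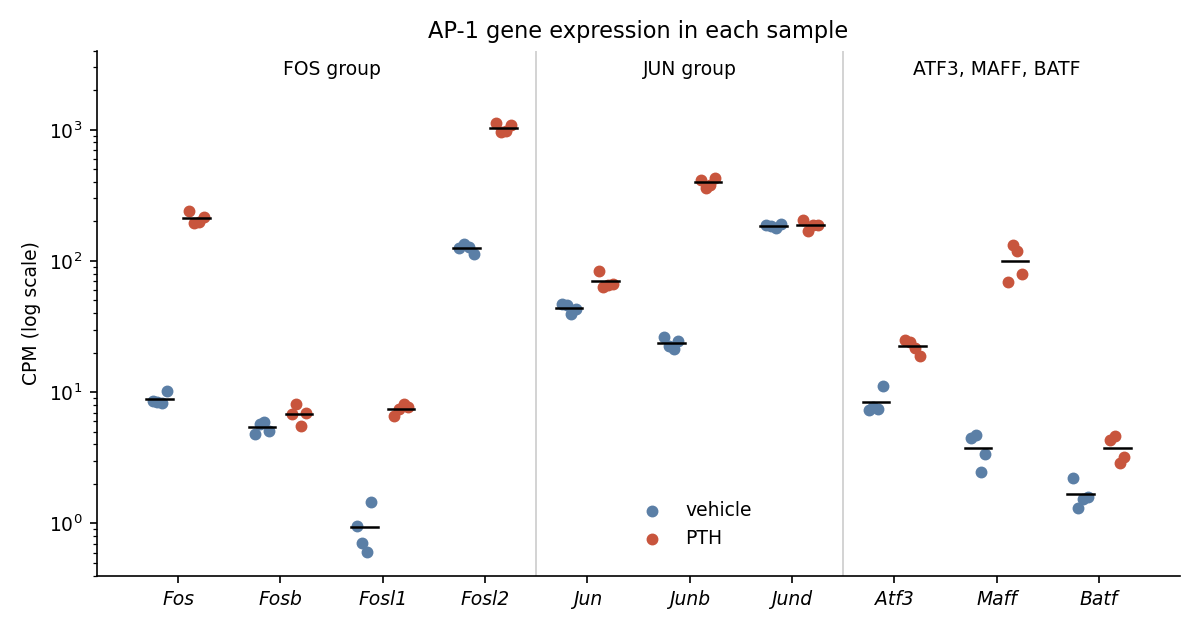
Expression of the 10 AP-1 genes in CPM (count scaled to library size, log axis) in each of the 4 vehicle and 4 PTH samples, with black bars at the group means. The groups do not overlap for 8 genes, while Fosb and Jund overlap.

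Expression levels are given in CPM, counts of a gene scaled to a common library size after TMM normalization. Total counts were 33605610 to 56090654 in the PTH samples and 41618108 to 46757836 in the vehicle samples. As a check of the labels, Tnfsf11, which encodes RANKL and is a known PTH target, went from 1.42 ± 0.365 CPM in vehicle samples to 128 ± 20.01 CPM in PTH samples (SD, n = 4). The receptor gene Pth1r fell from 136 ± 21.1 to 83.6 ± 11.6 CPM. Osteoblast markers summed to 43386 to 49934 CPM per vehicle sample and 43572 to 60329 CPM per PTH sample, and adipocyte markers to 45.8 to 65.1 and 41.5 to 63.2 CPM. Most of the osteoblast sum was Col1a1, at 44362 ± 2309 CPM with vehicle and 48173 ± 7733 CPM with PTH. Of 8 osteoblast markers 3 were downregulated, namely the osteoblast factor genes Sp7, from 103 ± 29.6 to 30.1 ± 3.26 CPM, and Runx2, from 116 ± 5.70 to 92.3 ± 8.97 CPM, and the osteocyte gene Dmp1, from 18.1 ± 6.05 to 8.27 ± 1.40 CPM. Macrophage markers, which mark cells that also express AP-1 genes, summed to 334 to 579 CPM with vehicle and 510 to 585 CPM with PTH, with 1 of 10 upregulated. Their median log2 fold change was 0.33. At an unadjusted p under 0.05 in edgeR 5 of them rose, beside 4419 of all 16736 tested genes. Of 6 heat shock genes, which can move with handling, 3 were upregulated, and the sum of all 6 was 1262 to 1386 CPM with vehicle and 1523 to 1916 CPM with PTH. Most of this sum was Hspa8, which did not pass, at 1140 ± 60.0 CPM with vehicle and 1240 ± 161 CPM with PTH. These calls stand beside 23.3% upregulated and 22.5% downregulated among all tested genes. The part of these lists in the AP-1 values was not tested.

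In the FOS group 3 of 4 genes were upregulated and the median log2 change was 3.02. Fos, the founding member (chromosome 12, 85473890 to 85477273, plus strand, GRCm38), had 8.63, 8.43, 8.28 and 10.2 CPM in the vehicle samples and 239, 193, 199 and 217 CPM in the PTH samples. Every PTH sample lay far above every vehicle sample. The mean rose from 8.89 ± 0.898 to 212 ± 20.6 CPM (SD, n = 4), a log2 fold change of 4.58 with an SE of 0.101, a 95% interval of 4.36 to 4.80 and an edgeR adjusted p of 1.09e-11. Ordered by log2 fold change, Fos was number 91 of 16736 tested genes.

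Fosl2, which encodes FRA-2 (chromosome 5, 32135801 to 32157842, plus strand), had the highest CPM of the members with PTH, while with vehicle it stood below Jund. Its level was 125, 135, 128 and 113 CPM with vehicle and 1133, 963, 970 and 1091 CPM with PTH. The groups were far apart, and the mean rose from 125 ± 8.83 to 1039 ± 85.7 CPM. The log2 fold change was 3.05 with an SE of 0.0883 (edgeR adjusted p = 8.97e-11). Its level moved from the 92.0 to the 99.5 percentile of the tested genes.

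Fosl1, which encodes FRA-1 (chromosome 19, 5447547 to 5455946, plus strand), was the member with the lowest vehicle level. It had 0.959, 0.712, 0.605 and 1.45 CPM with vehicle, from 29 to 72 counts, and 6.63, 7.49, 8.09 and 7.65 CPM with PTH, from 249 to 340 counts. The groups did not overlap, and the log2 fold change was 2.99 with a wider SE of 0.243 (edgeR adjusted p = 9.86e-07). Fosl1 shares 2767 bases with Ccdc85b on the other strand, which fell from 13.1 ± 1.37 to 9.21 ± 0.616 CPM, the opposite direction to Fosl1. The strand setting of the counting is not given in the sources used here, so reads from the shared bases could have gone to either gene.

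Fosb (chromosome 7, 19302696 to 19310051, minus strand) encodes a protein closely related to FOS. It had 4.80, 5.69, 5.97 and 5.08 CPM with vehicle and 6.77, 8.09, 5.48 and 6.99 CPM with PTH. PTH replicate 3 lay within the vehicle range and the other PTH samples above it. The log2 fold change was 0.34 with a 95% interval of 0.03 to 0.66 and an edgeR adjusted p of 0.0715, and the two-sided exact permutation test gave p = 0.0857. Without PTH replicate 3 it passed, at 0.43 and an edgeR adjusted p of 0.0271.

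**Figure D2:**
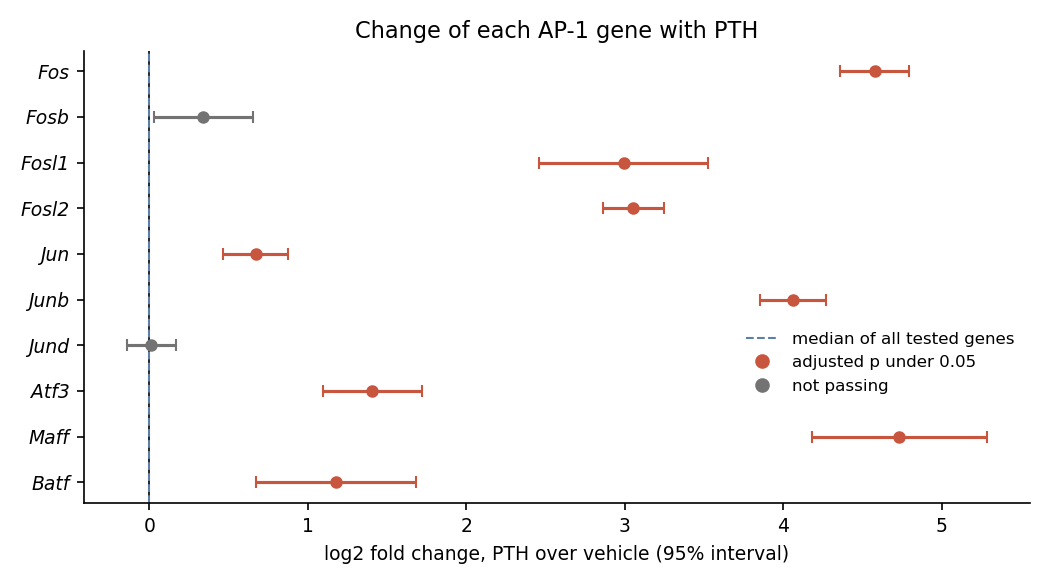
Log2 fold change of each AP-1 gene, PTH over vehicle, with its 95% interval from edgeR (n = 4 per group). Fos, Junb and Maff lie above 4, Fosl1 and Fosl2 near 3, and the intervals of Fosb and Jund lie close to or across 0, the median of all tested genes.

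In the JUN group 2 of 3 genes were upregulated, and the 3 genes differed widely. Junb, whose protein is a JUN family partner of FOS proteins (chromosome 8, 84974484 to 84978718, minus strand, 1 exon), had 26.5, 22.4, 21.4 and 24.7 CPM with vehicle and 413, 363, 377 and 432 CPM with PTH. The groups were far apart. The mean rose from 23.8 ± 2.30 to 396 ± 32.1 CPM, with a log2 fold change of 4.06 with an SE of 0.0950 (edgeR adjusted p = 1.50e-11). Its last 351 bases are shared with Prdx2 on the other strand, which rose less, from 218 ± 2.15 to 326 ± 21.1 CPM and a log2 fold change of 0.58.

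Jun encodes the prototype of the group (chromosome 4, 95049034 to 95052222, minus strand, 1 exon). It had 47.0, 46.2, 39.5 and 43.0 CPM with vehicle and 83.6, 63.9, 65.4 and 67.2 CPM with PTH. The groups did not overlap, and PTH replicate 1 stood above the other PTH samples. The log2 fold change was 0.67 with a 95% interval of 0.47 to 0.88 (edgeR adjusted p = 1.03e-04), and leaving out 1 sample at a time kept it between 0.57 and 0.73. The antisense gene Junos, which shares 689 bases with Jun, stayed under 1 CPM in every sample.

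Jund (chromosome 8, 70698949 to 70700616, plus strand, 1 exon) is commonly expressed in resting cells. It had 189, 186, 177 and 192 CPM with vehicle and 207, 170, 186 and 188 CPM with PTH. The groups overlapped fully, with the highest and the lowest value both in the PTH group. The log2 fold change was 0.01 with a 95% interval of -0.14 to 0.17 (edgeR adjusted p = 0.889; exact permutation p = 0.914), and its sign turned under 3 of 14 alternatives, the lowest value being -0.04. The interval of Jund does not reach that of Jun, which in turn does not reach that of Junb.

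All 3 members outside the FOS and JUN groups were upregulated. Maff, a small MAF protein without an activation domain (chromosome 15, 79346621 to 79359076, plus strand), had the largest log2 fold change of the 10 genes in the edgeR fit. Its level was 4.51, 4.75, 2.46 and 3.41 CPM with vehicle and 69.2, 133, 118 and 80.3 CPM with PTH. The groups did not overlap, but the PTH samples were more widely spread than for Fos or Junb. The mean rose from 3.78 ± 1.06 to 100 ± 30.5 CPM, with a log2 fold change of 4.73 with an SE of 0.253 and a 95% interval of 4.18 to 5.28 (edgeR adjusted p = 2.30e-08). This interval overlaps those of Fos and Junb.

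Atf3, a stress-induced factor that often acts as a repressor (chromosome 1, 191170296 to 191218039, minus strand), had 7.34, 7.71, 7.49 and 11.1 CPM with vehicle and 24.9, 24.1, 21.6 and 18.9 CPM with PTH. The groups did not overlap, although vehicle replicate 4 was higher than the other vehicle samples. The log2 fold change was 1.41 with an SE of 0.143 (edgeR adjusted p = 7.33e-06). Hsph1, Hspa1b and Hspa1a, the upregulated heat shock genes, rose by 1.79, 0.86 and 0.58 on the log2 scale in the same samples.

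Batf (chromosome 12, 85686669 to 85709087, plus strand), known chiefly from lymphocytes, was low in both groups. It had 2.21, 1.31, 1.54 and 1.59 CPM with vehicle, from 57 to 99 counts, and 4.33, 4.66, 2.87 and 3.21 CPM with PTH, from 110 to 222 counts. The lowest PTH sample lay above the highest vehicle sample. The log2 fold change was 1.18 with an SE of 0.232 (edgeR adjusted p = 0.00133). The lymphocyte markers Cd3e, Cd3d and Cd8a had 0 counts in all 8 samples. The 8 lymphocyte markers summed to 1.10 to 3.31 CPM with vehicle and 2.48 to 4.64 CPM with PTH. Cd4 made up most of these sums, averaging 2.09 CPM in the vehicle samples and 3.11 CPM in the PTH samples. It was the only lymphocyte marker tested and did not pass, with a log2 fold change of 0.57 (edgeR adjusted p = 0.184).

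For each of the 8 upregulated genes the two-sided exact permutation test on log2(CPM + 0.1) gave p = 0.0286, the smallest value that 70 assignments of 4 and 4 samples allow. Any gene whose groups do not overlap gives this value, so it only restates their separation. Of all tested genes 21.2% lay higher with PTH and 21.8% lower, without overlap. The size of the change varied among the members far more than its error. Maff and Fos were number 81 and 91 of all tested genes by log2 fold change, Junb number 142, Fosl2 and Fosl1 number 234 and 246, and Jun number 2412.

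Levels of different genes were compared as CPM per kilobase of the longest coding transcript. With vehicle, Jund led at 111 ± 3.89 CPM per kilobase, followed by Fosl2 at 19.1 ± 1.35, and then by Jun at 13.8 ± 1.07 and Junb at 13.1 ± 1.27, whose sample ranges overlapped. Atf3 and Fos, at 4.24 ± 0.909 and 4.22 ± 0.426 CPM per kilobase, could not be ordered either, nor could Maff, Batf and Fosb, which had between 1.42 and 1.93. Fosl1 was lowest at 0.50 ± 0.202 CPM per kilobase. The order below Jund depends on the length used. Per kilobase of all exons of a gene, Fosl2 had 12.9 ± 0.912 CPM and Jun 13.8 ± 1.07, with overlapping ranges, and both stood above Junb at 10.3 ± 1.0.

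With PTH the order of these levels was different. Junb led at 219 ± 17.7 CPM per kilobase, above Fosl2 at 159 ± 13.1. Jund at 113 ± 9.08 and Fos at 101 ± 9.77 CPM per kilobase overlapped, and Maff followed at 51.2 ± 15.6. Jun at 21.96 ± 2.87 stood below Maff, and Atf3 at 11.3 ± 1.36 below Jun. Fosl1 and Batf overlapped at 4.01 ± 0.328 and 3.95 ± 0.904 CPM per kilobase, and Fosb was lowest at 1.81 ± 0.283. Per kilobase of all exons, Junb still led at 172 ± 13.9 CPM, but Jund at 113 ± 9.08 and Fosl2 at 107 ± 8.85 overlapped.

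**Figure D3:**
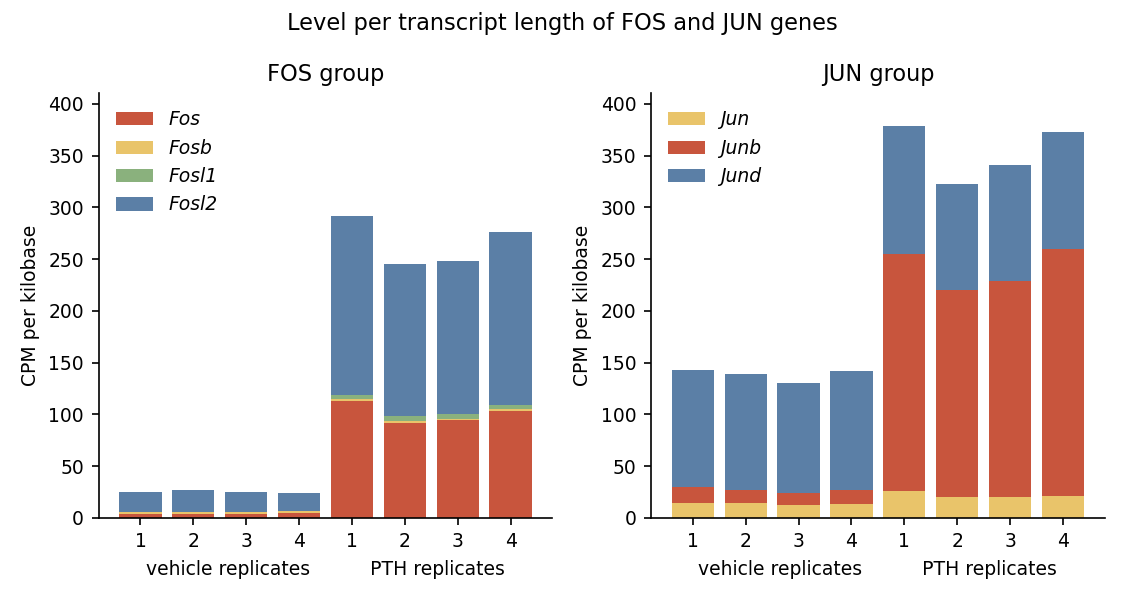
Level of each FOS gene and each JUN gene in CPM per kilobase of the longest coding transcript, stacked in a bar for each of the 4 vehicle and 4 PTH samples. The summed FOS level averaged 25.3 with vehicle and 265 with PTH and the summed JUN level 138 and 354, and most of the added JUN level is Junb.

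The summed FOS level was 25.3 ± 0.902 CPM per kilobase with vehicle and 265 ± 22.4 with PTH. The summed JUN level was 138 ± 5.70 and 354 ± 26.7, so that FOS transcripts were scarce beside JUN transcripts with vehicle and closer to them with PTH. Within the FOS sum, Fosl2 made up 75.6 ± 2.93% with vehicle and 59.9 ± 0.474% with PTH, and Fos made up 16.7 ± 2.21% and 37.9 ± 0.667%. Within the JUN sum, Jund made up 80.6 ± 0.869% with vehicle and 31.8 ± 1.21% with PTH, while Junb made up 9.48 ± 0.608% and 61.96 ± 1.63%. The share of Jun was 9.95 ± 0.529% and 6.20 ± 0.533%, lower with PTH although its own level rose.

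Ratios within a sample showed the same unequal change without reference to library size. Junb per length was 0.855 to 1.01 times Jun in the vehicle samples and 8.72 to 11.3 times Jun in the PTH samples. Its ratio to Jund was 0.111 to 0.130 with vehicle and 1.84 to 2.12 with PTH. Fos was 2.49 to 3.61 times Fosb with vehicle and 42.9 to 65.1 times Fosb with PTH. Fosl2 was 3.58 to 5.15 times Fos with vehicle and 1.53 to 1.62 times Fos with PTH. These ratios use the longest coding transcript and depend on that length. Per kilobase of all exons the PTH levels were closer, at 107 ± 8.85 CPM for Fosl2 and 90.2 ± 8.75 CPM for Fos, with overlapping sample ranges. The ratio of Fosl2 to Fosl1 overlapped between the groups, at 22.3 to 60.2 and 34.2 to 48.7.

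The 4 PTH samples also differed among themselves, and not in the same way for every member. Fos and Fosl2 were highest in PTH replicate 1 and lowest in replicate 2, which were also the deepest and the shallowest PTH libraries, with total counts of 56090654 and 33605610. Maff ran the other way, with 133 CPM in replicate 2 and 69.2 CPM in replicate 1. The part of library size in this spread was not tested, and with 4 samples no correlation was computed.

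**Figure D4:**
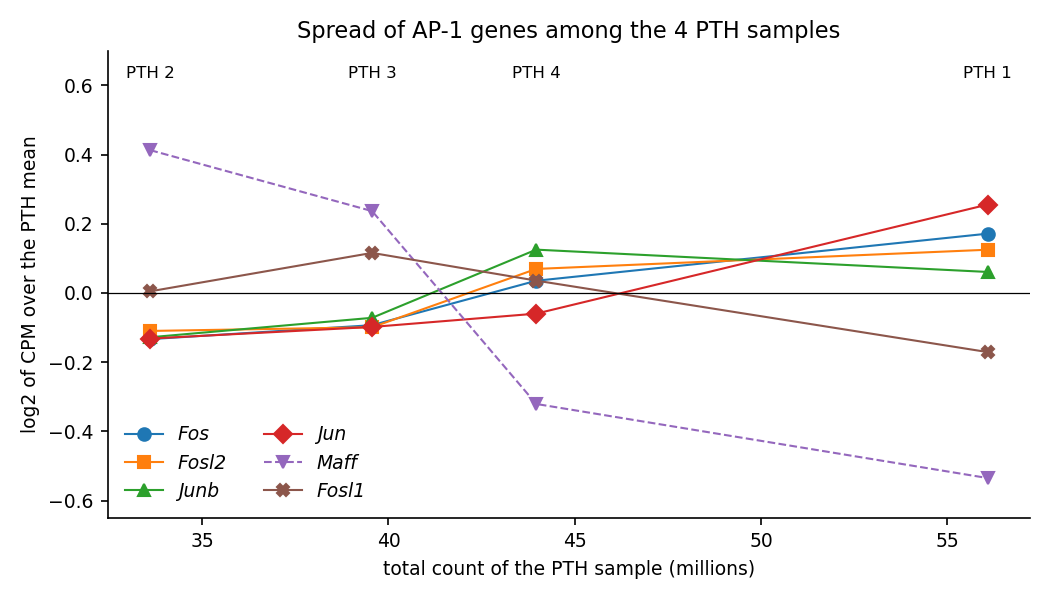
Log2 of the CPM of 6 AP-1 genes over their mean in the PTH samples, plotted against the total count of each of the 4 PTH samples. Fos, Fosl2 and Jun are highest in the deepest library, whereas Maff is highest in the shallowest.

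The genes most like 1 member of each group, the one with the highest CPM averaged over all 8 samples, were sought among the 14069 tested genes whose mean reached 1 CPM, by the root mean square difference of log2(CPM + 0.1) profiles over the 8 samples. In the vehicle samples alone Jund stood above Junb and Atf3 above Maff, so Junb and Maff were taken through their PTH level. Nearest to Fosl2 were Errfi1, an inhibitor of EGF receptor signaling, at a difference of 0.0687, Prr5 at 0.0820 and the potassium channel gene Kcnk5 at 0.0893. Nearest to Junb were the kinase gene Pim1 at 0.111, the cAMP phosphodiesterase gene Pde4b at 0.115 and Plaur, which encodes the urokinase receptor, at 0.116. Maff had less close neighbours, the cAMP-responsive factor gene Crem at 0.305, Cabp1 at 0.340 and the deiodinase gene Dio3 at 0.358. Cabp1 entered the search only through its PTH samples, which averaged 5.85 CPM, whereas the vehicle samples averaged 0.163 CPM. The vehicle part of its profile therefore rests on very low counts and on the added 0.1. Of these 9 genes only Plaur belonged to one of the lists that follow.

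Other basic leucine zipper genes of the same network moved less. Of 10 relatives, 7 were tested. Of these 5 were upregulated and 1 was downregulated, against 23.3% and 22.5% of all tested genes. The median log2 fold change was 0.74 against -0.000814 for all tested genes. Mafk, another small MAF gene, rose from 16.1 ± 2.06 to 49.2 ± 11.5 CPM, with a log2 fold change of 1.61 (edgeR adjusted p = 5.02e-06). Maf, which encodes a large MAF protein, rose by 0.74 on the log2 scale. Atf7, a relative of Atf2, fell by 0.80 on the log2 scale, from 101 ± 6.42 to 57.7 ± 1.38 CPM.

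The kinases and regulators that act on AP-1 moved in both directions. Of 23 tested genes 6 were upregulated and 6 were downregulated, close to the share of all tested genes, and the median log2 fold change was 0.03. Srf, which encodes the factor that binds the serum response element of Fos, fell from 59.7 ± 1.69 to 27.0 ± 2.48 CPM, with a log2 fold change of -1.14 (edgeR adjusted p = 1.32e-07). The MAP kinase gene Mapk7, which encodes ERK5, fell by 1.02 and its activator Map2k5 by 0.67 on the log2 scale. Map2k1, which encodes the ERK activator MEK1, rose by 0.63, and Fbxw7, whose product marks JUN for degradation, by 0.47. Map2k7, the activator of JUN kinases, rose by 0.50 (edgeR adjusted p = 0.0231), but its groups overlapped and the call was lost in 4 of 8 fits that left out 1 sample.

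Of 25 genes widely described as AP-1 targets, 24 were tested, 14 were upregulated and 1 was downregulated, against 23.3% and 22.5% of all tested genes, and their median log2 value was 0.98. Lif, a cytokine gene, rose from 2.92 ± 0.315 to 59.4 ± 4.07 CPM, with a log2 fold change of 4.35 (edgeR adjusted p = 1.23e-11). Ptgs2, the inducible enzyme of prostaglandin synthesis, rose from 2.69 ± 1.18 to 153 ± 16.7 CPM, with a log2 fold change of 5.82 (edgeR adjusted p = 1.59e-09). The cytokine gene Il6 had 0 to 4 counts in the vehicle samples and 8818 to 10113 counts in the PTH samples, so its fold change depends on counts near 0 and is not given. The intermediate filament gene Vim, the downregulated gene, changed by -0.21 (edgeR adjusted p = 0.0438), and this call was lost under 10 of 14 alternatives. Mmp13, a collagenase gene with a known AP-1 site, was picked out after its values were seen. It had 287 ± 30.9 and 334 ± 82.2 CPM, with a log2 fold change of 0.22 with a 95% interval of -0.10 to 0.54.

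**Figure D5:**
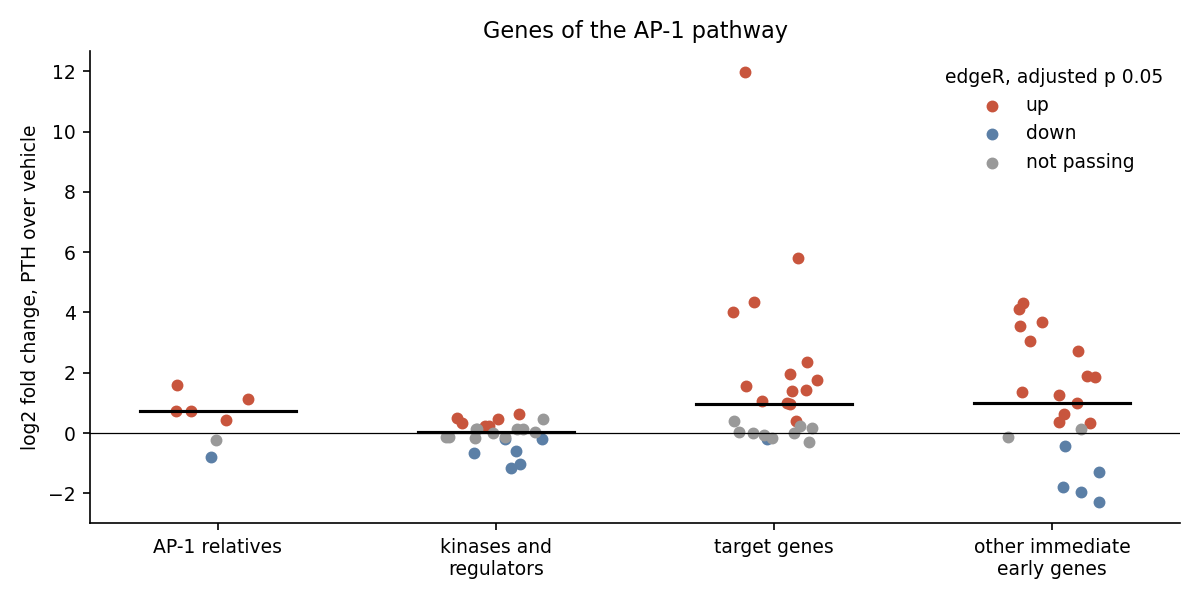
Log2 fold change, PTH over vehicle, of each tested gene in 4 lists around AP-1, colored by the edgeR call, with black bars at the list medians of 0.74, 0.03, 0.98 and 0.996. The highest point, Il6, rests on 0 to 4 counts in the vehicle samples.

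Among 21 other immediate early genes, those that classically respond to stimulation without new protein synthesis, 14 were upregulated, 5 were downregulated and 2 did not pass, with a median log2 value of 0.996. Beside the 23.3% and 22.5% of all tested genes, the downregulated share was near the background. The nuclear receptor gene Nr4a1 rose from 12.3 ± 1.201 to 247 ± 21.2 CPM, with a log2 fold change of 4.33 (edgeR adjusted p = 1.19e-11), of a size with Fos and Junb. Csrnp1 and Ier3 rose by 4.12 and 3.69 on the log2 scale. The synaptic gene Arc fell from 2.81 ± 0.333 to 0.582 ± 0.139 CPM, with a log2 fold change of -2.28, and Ctgf, which encodes a matricellular protein, fell from 132 ± 7.61 to 37.9 ± 4.99 CPM, with a log2 fold change of -1.80. Npas4, with 0.425 ± 0.130 and 0.114 ± 0.0880 CPM, changed by -1.94 (edgeR adjusted p = 0.0326), and this call was lost under 6 of the 13 alternatives that tested it.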

How the data were processed

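RNA sequencing of 4 PTH and 4 vehicle samples was analysed from the deposited count table. Poly(A) libraries had been aligned by the authors to mm10 (GRCm38) using HISAT2, and StringTie2 was used for transcript assembly. The authors deposited whole-number counts estimated from the coverage of the assembled transcripts, with no scaling. The annotation version, strand setting and read-length setting are not given in the sources used here, and a wrong read length would scale every count alike. Of 47706 genes, 16736 passed edgeR's filterByExpr (minimum count 10, minimum total 15).

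The PTH and vehicle samples were compared by edgeR 4.0.16 in R 4.3.3 (TMM, two-sided quasi-likelihood test, Benjamini-Hochberg adjusted p under 0.05, no minimum fold change). The authors used DESeq2, here an alternative (version 1.42.0). Further alternatives were DESeq2's size factors, no filter, counts summed by symbol, counts halved, a log2 fold change of at least 1, a pseudocount of 1 in the exact tests, exon-union lengths, a replicate block and leaving out each sample. The fits were tested on simulated data. SciPy 1.17.1 gave two-sided exact permutation tests, and pandas 2.3.3 and matplotlib 3.10.9 handled tables and plots. Positions and lengths are from GENCODE M21 and promoter windows from RefSeq, where Fosl1 had no window. Protein sequences were not analysed here.

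The members and all gene lists were chosen with earlier results of these data known, so no list count is independent evidence. All members were named, with the 3 largest passing increases and decreases of each other list around AP-1, Tnfsf11, Pth1r, and the 3 nearest profiles of the member with the highest mean CPM in each group. A relative that this rule names is not reported here.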

Additional observations from a re-analysis of the deposited data

Results flagged for a closer look

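Single samples standing apart from the other 3 of their group were sought with Dixon's test in 88 groups of 4 samples, formed by 44 named genes, and 6 were found. Chance flags about 1 in 20 groups. Of the 20 groups of AP-1 genes 2 were flagged. Jun had 83.6 CPM in PTH replicate 1 and 63.9 to 67.2 CPM in the other PTH samples, and Atf3 had 11.1 CPM in vehicle replicate 4 and 7.34 to 7.71 CPM in the other vehicle samples. Tnfsf11 had 157 CPM in PTH replicate 1 and 115 to 120 CPM in the other PTH samples. Csrnp1 had 4.95 CPM in vehicle replicate 1 against 3.17 to 3.47 CPM, Prr5 had 12.7 CPM in vehicle replicate 4 against 13.6 to 13.7 CPM, and Cabp1 had 0.0209 CPM in vehicle replicate 3 against 0.202 to 0.223 CPM.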

How the results depend on the processing

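The 8 upregulated members stayed upregulated under all 14 alternative fits of each gene, and leaving out 1 sample gave 8 to 9 upregulated members, with Fosb the added one. Fosb passed in 1 of 14 fits, with adjusted p from 0.0271 to 0.164. Jund passed in none, and its log2 fold change turned negative without the filter (-0.0204), without PTH replicate 1 (-0.0381) and without vehicle replicate 3 (-0.0118), within a range of -0.0381 to 0.0692 when 1 sample was left out.

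When log2 fold changes also had to reach 1, 1232 genes were up and 650 down, and the lists kept 2 relatives up and 0 down, 0 kinases and regulators up and 2 down, and 0 targets down. The downregulated target, Vim, was also lost, leaving 0, with DESeq2's size factors and with counts halved. Leaving out 1 sample gave 1 to 2 downregulated relatives, with 2 without PTH replicate 1 or vehicle replicate 1, 3 to 6 upregulated kinases and regulators, with 3 without vehicle replicate 1, and 0 to 2 downregulated targets. The cause was not tested. With exon-union lengths the share of the FOS sum was 21.01% for Fos and 71.6% for Fosl2 with vehicle, and 44.6% and 53.1% with PTH, and the share of the JUN sum was 7.61% for Junb and 82.2% for Jund with vehicle, and 56.2% and 36.7% with PTH.

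The shared replicate numbers gave no sign of pairing: same-numbered samples deviated from their group means with correlations of -0.04 to 0.03. Differently numbered samples were not set beside them, so these values do not establish that the samples were unpaired. A fit with the replicate number as a block gave 3571 genes up and 3432 down, 8 members up and 0 down, and 0 downregulated targets. Exact permutation tests were not run with a sample left out. With counts halved Npas4 fell under the filter on low counts and was not tested, while Fosl1 and Batf still passed, at adjusted p = 5.93e-07 and 0.00113.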

Other observations

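Marker lists of 3 other cell types were also summed, and the endothelial and skeletal muscle sums were low. The 6 chondrocyte markers summed to 422 to 481 CPM with vehicle and 494 to 622 CPM with PTH, and 2 were upregulated. The 5 endothelial markers summed to 6.15 to 6.97 CPM with vehicle and 5.66 to 6.97 CPM with PTH, with 1 up, 1 down and Emcn at 0 in every sample. Most of this sum was Tek, at 4.87 ± 0.562 CPM with vehicle and 3.46 ± 0.436 CPM with PTH. The 5 skeletal muscle markers summed to 1.14 to 2.36 CPM with vehicle and 2.14 to 3.49 CPM with PTH, and 1 was upregulated. Of 7 tested adipocyte markers 1 was downregulated. All these marker calls stand beside 23.3% upregulated and 22.5% downregulated among all tested genes.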
